A study of Mus musculus with 17 samples.

Results

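Dendritic cells cultured from mouse bone marrow (BMDC), which take up antigen and present it to T cells, were incubated with MSA2 and IPI-549 together, called the combination here, and compared with untreated BMDC across all genes. MSA2 is a non-nucleotide agonist of STING, the adaptor through which cells respond to DNA in the cytosol. IPI-549 (eganelisib) blocks PI3Kγ, the lipid kinase isoform that leukocytes use downstream of chemokine receptors. The comparison used 5 of the 17 RNA-seq libraries of the series, the 2 BMDC libraries titled for treatment with MSA2+IPI-549 and the 3 titled Control. A further 3 BMDC libraries given MSA2 alone entered the same fit, and 3 Control and 3 combination libraries of B cells from the spleen served to compare the response between cell types. Groups were taken from the titles, because the treatment field of every library reads Control. The series text places the cells in KPC mice, a name used for a pancreatic cancer model, whereas the genotype field reads WT. Dose and incubation time are not given in the sources used here, and there was no group with IPI-549 alone. Nothing states that replicates came from separate mice or cultures, so p-values measure the spread between these libraries, which may be technical.

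Activated STING recruits the kinase TBK1, which switches on the transcription factor IRF3 and with it the gene of interferon beta. STING also engages NF-κB, the factor behind many inflammatory cytokine genes. Secreted type I interferons bind IFNAR1 and IFNAR2 and raise a large set of antiviral genes. Dendritic cells so activated are known to display costimulatory ligands, to move towards lymph nodes through CCR7 and to prime T cells.

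Promoters of 5 genes that rose with the combination are shown because they hold the letters bound by the factors of these pathways. They are bases before the gene start in RefSeq (GRCm38.p6), for Isg15 at chr4:156200819-156201068, minus strand, for Ifit1 at chr19:34640639-34640870, plus strand, for Cxcl10 at chr5:92348890-92349139, minus strand, for Il6 at chr5:30012864-30013113, plus strand, and for Nfkbia at chr12:55492648-55492897, minus strand. Capitals mark the core of the interferon-stimulated response element, GAAA followed by any 2 bases and GAAA again, on either strand, in Isg15, Ifit1 and Cxcl10, and the NF-κB consensus in Cxcl10, Il6 and Nfkbia.
Isg15: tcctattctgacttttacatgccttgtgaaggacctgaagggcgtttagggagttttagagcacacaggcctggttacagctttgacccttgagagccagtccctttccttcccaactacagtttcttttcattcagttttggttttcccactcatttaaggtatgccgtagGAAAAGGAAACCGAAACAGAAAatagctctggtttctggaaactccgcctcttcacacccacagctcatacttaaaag
Ifit1: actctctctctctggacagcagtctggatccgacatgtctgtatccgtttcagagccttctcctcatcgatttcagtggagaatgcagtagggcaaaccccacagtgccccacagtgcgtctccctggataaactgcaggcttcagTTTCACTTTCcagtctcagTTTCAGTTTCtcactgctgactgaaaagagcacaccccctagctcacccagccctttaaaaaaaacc
Cxcl10: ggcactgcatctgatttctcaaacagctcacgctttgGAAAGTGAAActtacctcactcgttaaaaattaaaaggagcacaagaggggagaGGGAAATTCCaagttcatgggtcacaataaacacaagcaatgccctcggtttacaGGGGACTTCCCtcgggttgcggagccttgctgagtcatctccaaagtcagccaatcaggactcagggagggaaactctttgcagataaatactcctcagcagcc
Il6: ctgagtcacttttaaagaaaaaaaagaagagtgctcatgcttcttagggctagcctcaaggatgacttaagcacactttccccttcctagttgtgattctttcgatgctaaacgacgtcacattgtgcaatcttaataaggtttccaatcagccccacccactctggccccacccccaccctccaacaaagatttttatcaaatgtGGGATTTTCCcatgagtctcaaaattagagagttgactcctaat
Nfkbia: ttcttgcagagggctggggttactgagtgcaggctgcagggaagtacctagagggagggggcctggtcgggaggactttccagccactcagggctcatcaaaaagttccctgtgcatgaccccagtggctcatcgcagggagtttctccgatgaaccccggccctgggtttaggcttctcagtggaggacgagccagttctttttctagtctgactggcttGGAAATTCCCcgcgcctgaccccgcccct
Of 32817 RefSeq promoters scanned over 250 bases on both strands, 2.97% held the interferon element core and 7.25% the NF-κB consensus. Isg15 held 3 overlapping copies of the interferon element core, the nearest beginning 66 bases before the start, and Ifit1 held 2 on the opposite strand. Cxcl10 held 1 interferon element core and the NF-κB consensus at 3 positions, some of which overlap. A match describes the letters and is not a measured site. A comparison of motif shares between called genes and all genes was void, because RefSeq promoters matched 76.5% of the genes called higher and 76.1% of those called lower, short of the 80% required.

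Totals of the 8 BMDC libraries ranged from 34757983 to 73163252 counts. The first principal component, with 58.8% of the variance, separated the Controls (-50.93 to -41.80) from the combination (17.99 and 21.17) and from MSA2 (28.82 to 37.60). Levels below are CPM, counts per library total scaled by TMM factors. Over the 5 compared libraries Itgax (CD11c) was at 1432 to 1889 CPM, Cd74 at 5742 to 7248 CPM and H2-Ab1 at 2326 to 3015 CPM, while Flt3, a growth factor receptor of classical dendritic cells, was near 0 at 0.247 to 1.08 CPM. The 20 macrophage and monocyte markers summed to 24607 to 26676 CPM in the Controls and 21774 to 22691 CPM in the combination, and the neutrophil markers to 749.7 to 1018 and 739 to 842 CPM. Markers of T cells summed to 41.9 to 51.3 CPM in the Controls and 42.7 to 44.6 CPM in the combination. Those of B cells summed to 6.93 to 8.13 and 6.21 to 8.88 CPM. Sums hold only markers that passed the expression filter, 6 of 14 for T cells, 5 of 12 for B cells and 13 of 14 for neutrophils. In bulk libraries, fewer cells of a type and less RNA per cell cannot be told apart.

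A pair of Control libraries stood apart. Replicates are numbered by their titles, the title without a suffix being 1. Control 2 held more RNA of induced genes than Controls 1 and 3. Across the 34 genes called at least 16-fold higher with a combination mean of at least 5 CPM, Control 2 was the highest Control in 29, and its excess over the mean of the other Controls had a median of 1.56% of the combination level (quartiles 1.2% and 1.95%). The same median was -0.848% for Control 1 and -0.952% for Control 3. Control 3 was high in small structured RNAs, with Rn7s1 at 253 CPM against 10.98 and 9.97 CPM in Controls 1 and 2. Rn7sk was at 49.7 CPM against 4.57 and 2.98 CPM. The largest difference in level among the genes inspected was in CT010467.1, at 25129 CPM against 2722.5 and 1947 CPM. Lars2 was at 1699 CPM against 199.8 and 151.4 CPM. None of these genes was called. Without Control 2, 858 genes were called higher and 604 lower, and without Control 3, 967 and 691. Levels that do not overlap between the groups are common with so few libraries, since both combination libraries exceeded every Control in 23.3% of all genes and lay below every Control in 21.5%. Counts of genes are given in brackets wherever leaving out 1 library moved the higher or the lower count by more than 1.5-fold, or to or from 0.

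**Figure D1:**
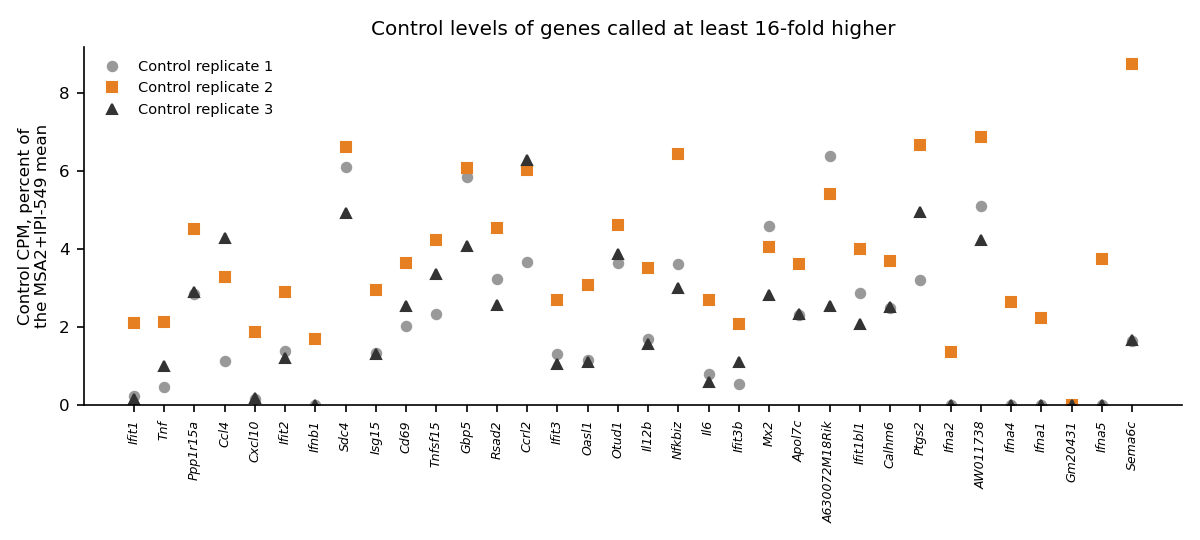
The x axis holds the 34 genes called at least 16-fold higher with a combination mean of at least 5 CPM, in falling order of that mean, and the y axis gives each Control library's CPM as a percent of it. Control 2 (squares) was the highest Control in 29 of the 34, and Gm20431 was at 0 in all 3 Controls.

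The combination changed 1883 of 14613 genes tested (12.9%; edgeR quasi-likelihood F test, Benjamini-Hochberg adjusted p under 0.05). Of these, 1097 rose (7.51% of genes tested) and 786 fell (5.38%), and 1030 and 747 were protein coding. The list counts below are to be read beside these shares. The lists were chosen with earlier results of these data known, so their shares are not independent of these data. The rises were larger, with 397 genes at least 2-fold higher, 167 at least 4-fold and 63 at least 16-fold, against 152, 23 and 2 lower by those folds. Those lower by at least 16-fold were the predicted genes Gm47204, from 2.01, 0 and 3.06 CPM in the Controls, and Gm26965, from 0.766, 0.381 and 0.173 CPM, both at 0 in the combination. The predicted gene Gm20431, whose exons overlap those of Ube2v1, had 0 counts in all Controls and 132 and 427 in the combination. With 3 counts over all Controls taken as the limit, it was at least 281.7-fold higher, and these 3 genes were named after their values were seen. In the MSA2 libraries Gm20431 had 0, 84 and 0 counts. It was thus absent or present within 1 group, and its fold is uncertain. The median log2 fold change was 0.70 over genes that rose, -0.51 over genes that fell and 0.01 over all genes tested. With upper quartile factors the split was 938 higher and 1046 lower, so that rises made up 47.3% of calls in place of 58.3%. Without combination 1 there were 583 higher and 260 lower, without combination 2 there were 738 and 298, and without Control 1 there were 825 and 477. Leaving out a combination library leaves that arm with 1 library, which is then assumed to vary like the other groups.

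**Figure D2:**
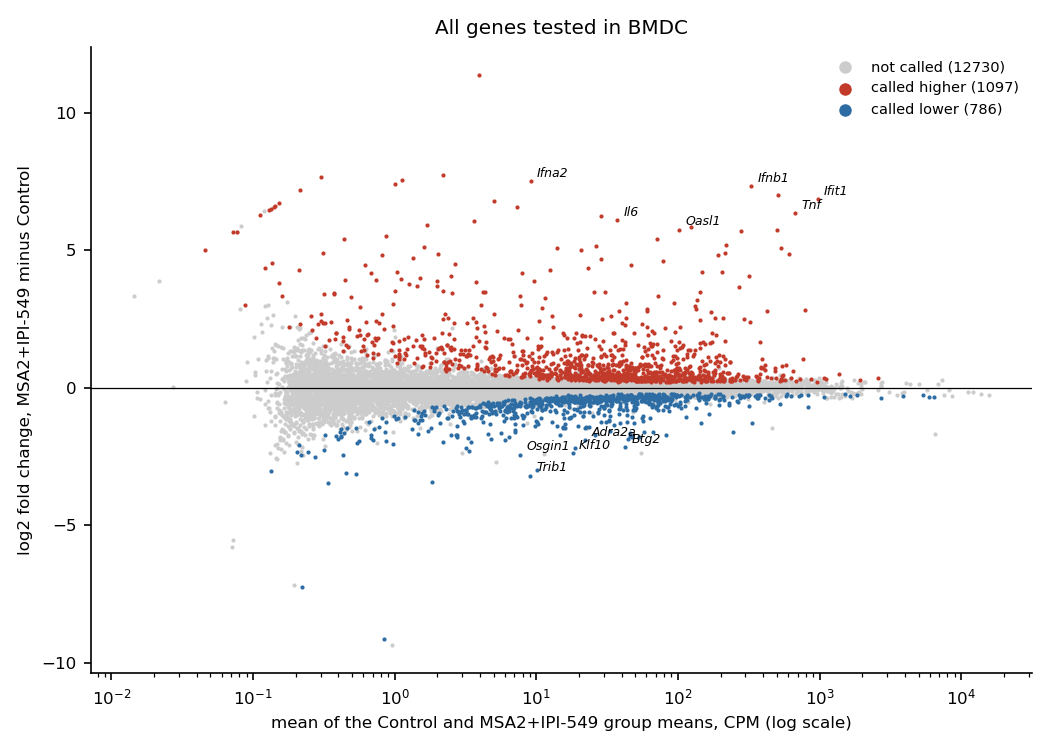
Each point is 1 of the 14613 genes tested, placed by the mean of the Control and combination means in CPM (log axis) and by its log2 fold change, combination minus Control, with 11 named genes labelled. Of the called genes, 63 were at least 16-fold higher and 2 at least 16-fold lower, and the outermost called points, Gm20431 and Gm47204, were at 0 in every library of 1 group, so their place depends on the prior count.

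Interferon genes were among those that rose furthest. Ifnb1, which encodes interferon beta (chromosome 4, 88522025 to 88522774, minus strand, GRCm38), was at 0, 11.2 and 0.0577 CPM in the Controls and 675 and 634 CPM in the combination. Both combination libraries lay far above every Control, and Control 2 alone among the Controls held more than trace counts, 499 against 0 and 2. The log2 fold change was 7.34 ± 0.96 (SE; edgeR adjusted p = 0.00038), and 14.34 without Control 2, where it depends on the prior count. Of 14 type I and III interferon genes tested, 13 rose and none fell, and leaving out any 1 BMDC library left 12 or 13. Ifnz, with 2 counts in the Controls and 11 in the combination, did not pass. The list held 19 genes, and those tested passed the expression filter through the treated libraries. A call other than higher was therefore hardly possible, and the count and the list's median below are shaped by this filter.

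Ifna2 was at 0, 0.247 and 0 CPM in the Controls and 19.9 and 16.4 CPM in the combination, and Ifna4 was at 0, 0.381 and 0 CPM in the Controls and 16.1 and 12.7 CPM in the combination. Counts were present in Control 2 for 10 of the 14 interferon genes, and in Control 1 and in Control 3 for 1 each. Ifna11, Ifna12, Ifna15 and Ifnab had 0 counts in all 3 Controls, so their rise is a bound. Taking 3 counts in the whole Control group as the floor, they were at least 10.6-fold to at least 22.7-fold higher. The list's median log2 fold change was 6.99 as fitted and 6.33 with these 4 genes at their bound, beside 0.01 over all genes. Interferon alpha genes are near copies of each other, so reads may be divided among them and the value of a single one is uncertain. The type III genes Ifnl2 and Ifnl3 held 3 and 2 counts in the combination and 0 in the Controls, too few to test.

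Among interferon-stimulated antiviral genes, 23 of 36 tested rose and 1 fell (23 and 0 without Control 1 or combination 2, 22 and 0 without Control 3, 20 and 0 without combination 1). The median log2 fold change of the list was 1.14. Ifit1, whose product binds foreign RNA, was at 4.40, 40.6 and 3.40 CPM in the Controls and 2191 and 1651 CPM in the combination. The groups did not overlap, and Control 2 was the highest Control. The log2 fold change was 6.87 ± 0.84 (edgeR adjusted p = 0.000232). Isg15, a ubiquitin-like modifier, was at 7.32, 16.1 and 7.27 CPM in the Controls and 545 and 548 CPM in the combination, a log2 fold change of 5.72 ± 0.30. Oasl1, a member of the oligoadenylate synthetase-like family, rose from 2.33, 6.23 and 2.22 to 218 and 185 CPM (5.76 ± 0.31). Ifit3 and its near copy Ifit3b had log2 fold changes of 5.85 ± 0.33 and 6.25 ± 0.37, and shared reads leave each of these uncertain.

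The antiviral list was not uniform. Eif2ak2, which encodes the kinase PKR, was at 47.3, 43.6 and 49.4 CPM in the Controls and 37.9 and 32.7 CPM in the combination. It was called lower (log2 fold change -0.41 ± 0.11, edgeR adjusted p = 0.03), a call lost without Control 1, Control 3, combination 1 or combination 2 (adjusted p = 0.0782, 0.0774, 0.0621 and 0.273). Oas1a, Oas2, Oas3, Usp18 and Xaf1, chosen after their values were seen, had log2 fold changes of 0.24, -0.17, -0.26, 0.47 and 0.24 and did not pass. Of guanylate-binding proteins and related GTPases, which act against intracellular pathogens, 6 of 16 tested rose and none fell. Gbp5 was at 22.7, 23.6 and 15.9 CPM in the Controls and 433 and 344 CPM in the combination, a log2 fold change of 4.23 ± 0.19, and both combination libraries were above every Control. Gbp2 and Gbp3 had log2 fold changes of 1.47 ± 0.13 and 1.52 ± 0.11, and reads may be shared within this family.

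**Figure D3:**
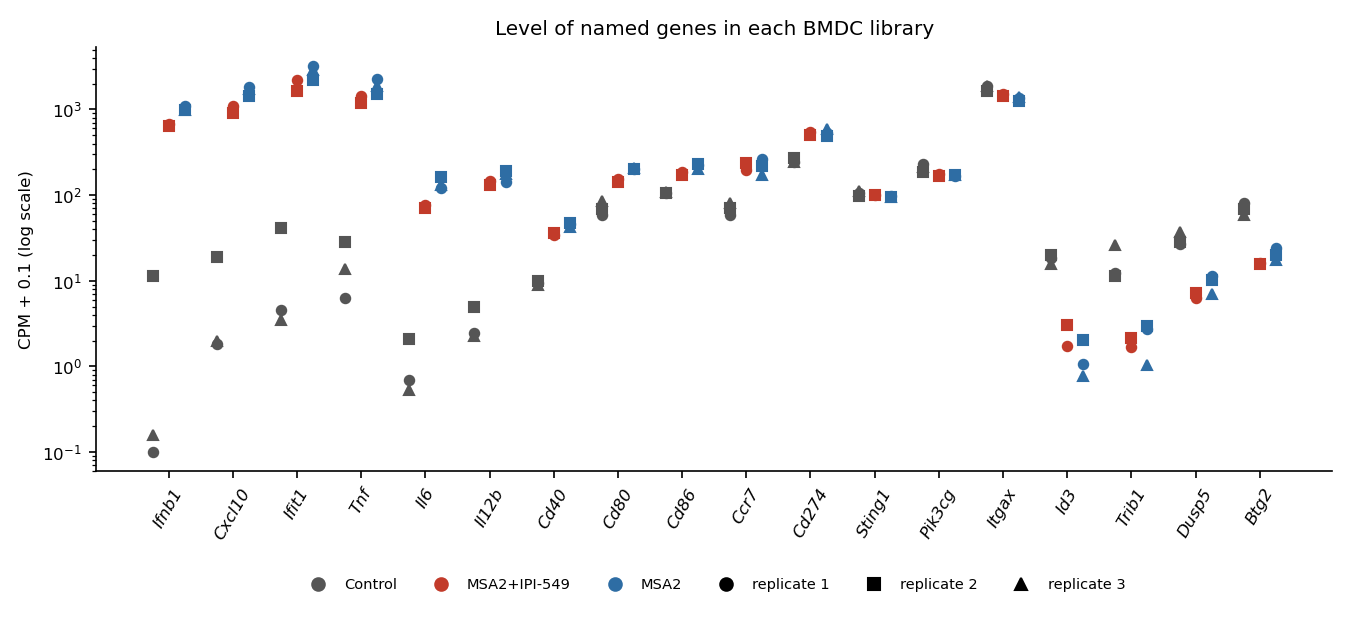
The y axis gives the CPM of 18 named genes, with 0.1 added and on a log scale, in each of the 8 BMDC libraries, with colours for the 3 groups and symbols for replicates. Combination and MSA2 libraries lie apart from the Controls for the interferon, cytokine and costimulatory genes and for Id3, Trib1, Dusp5 and Btg2, whereas Sting1 lies at 98.2 to 111 CPM across Control and combination.

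Of inflammatory cytokine genes, 11 of 22 tested rose and 2 fell. Tnf, the gene of tumour necrosis factor, was at 6.24, 28.4 and 13.5 CPM in the Controls and 1453 and 1204 CPM in the combination. All Controls lay far below the combination, with Control 2 the highest of them, and the log2 fold change was 6.36 ± 0.46 (edgeR adjusted p = 3.82e-06). Il6 rose from 0.596, 1.995 and 0.432 to 76.7 and 70.5 CPM (6.09 ± 0.32). Il12b, which encodes the p40 subunit shared by IL-12 and IL-23, rose from 2.35, 4.86 and 2.16 to 146 and 130.3 CPM (5.43 ± 0.24). Tnfsf15, whose product TL1A costimulates T cells, rose from 9.82, 17.8 and 14.01 to 454 and 381 CPM (4.91 ± 0.22).

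Il27, the gene of the p28 subunit of IL-27, was low in level and rose from 0.312, 0.403 and 0.548 to 5.30 and 3.98 CPM (3.46 ± 0.39). Against the direction of the list, Il16, which encodes a T cell attractant, fell from 24.4, 21.8 and 22.03 to 7.12 and 6.60 CPM (-1.73 ± 0.13), and Osm, the gene of oncostatin M, fell from 12.1, 14.3 and 15.1 to 5.85 and 6.11 CPM (-1.21 ± 0.19). In both, each combination value was below each Control value. Il10, an inhibitory cytokine gene, had 0 counts in the 3 Controls and 4 and 1 counts in the combination and was not tested.

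Of chemokine genes, 13 of 22 tested rose and none fell (13 and 1 without MSA2 library 1 or MSA2 library 2). The median log2 fold change of the list was 1.62. Cxcl10, a ligand of the chemokine receptor CXCR3 of T cells, was at 1.73, 18.7 and 1.87 CPM in the Controls and 1087 and 918 CPM in the combination (log2 fold change 7.02 ± 0.75, edgeR adjusted p = 8.89e-05). The combination was far above all Controls. RNAs of the other CXCR3 ligands were far less abundant. Cxcl11 rose from 0.0284, 0.0672 and 0.0577 to 3.48 and 3.20 CPM (5.92 ± 0.41). Cxcl9 rose from 0.170, 0 and 0 to 1.99 and 1.15 CPM (4.83 ± 0.88). Both genes passed the expression filter through the treated libraries, so for them a call other than higher was hardly possible. Cxcl11 is annotated as a polymorphic pseudogene, so its RNA may not yield a working chemokine. The chemokine gene Ccl4 rose from 11.8, 34.5 and 44.9 to 1049.5 and 1043 CPM (5.10 ± 0.40).

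Among receptors for chemokines and other leukocyte attractants, 6 of 18 tested rose and 4 fell (5 and 2 without combination 1). Ccr7, the receptor that guides dendritic cells to lymph nodes, was at 58.95, 70.5 and 80.1 CPM in the Controls and 198 and 238 CPM in the combination (log2 fold change 1.64 ± 0.17), without overlap between the groups. Ccrl2, a chemerin-binding receptor, had the highest log2 fold change of the list and rose from 10.3, 16.9 and 17.6 to 301 and 259.8 CPM (4.23 ± 0.20). S1pr3, a sphingosine 1-phosphate receptor, fell from 6.33, 9.46 and 12.5 to 2.27 and 2.83 CPM (-1.89 ± 0.38), a call that edgeR lost without combination 1 (adjusted p = 0.0926).

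Of costimulation and maturation genes, 16 of 20 tested rose and 1 fell, 85.0% of the list beside 12.9% of all genes, and leaving out any 1 BMDC library left 15 or 16 higher and 1 lower. Cd40, the receptor through which T cells license dendritic cells, was at 9.31, 9.89 and 8.82 CPM in the Controls and 33.9 and 35.7 CPM in the combination (log2 fold change 1.90 ± 0.08, edgeR adjusted p = 1.12e-07). Cd80 and Cd86 encode the ligands of CD28. Cd80 rose from 58.3, 69.02 and 84.2 to 153 and 142 CPM (1.07 ± 0.12) and Cd86 from 107, 105 and 108 to 185 and 170.2 CPM (0.74 ± 0.07). Each combination value exceeded each Control value for these 3 genes. Tnfsf9, whose product is the ligand 4-1BBL, rose from 7.75, 8.79 and 10.5 to 84.6 and 69.7 CPM (3.10 ± 0.13), and Fscn1, an actin-bundling protein of mature dendritic cells, from 22.4, 26.2 and 31.6 to 95.3 and 121 CPM (2.02 ± 0.24). The exception was Icosl, the gene of the ligand of ICOS, which fell from 37.7, 31.3 and 33.7 to 12.5 and 12.9 CPM (-1.43 ± 0.13).

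Inhibitory ligands and enzymes moved both ways, in that 3 of 19 tested rose and 4 fell (3 and 2 without Control 1 or combination 2, 3 and 1 without combination 1). Cd274, which encodes PD-L1, was at 244, 273 and 245 CPM in the Controls and 548 and 505 CPM in the combination (log2 fold change 1.05 ± 0.09, edgeR adjusted p = 9.79e-06). Ptgs2, the prostaglandin synthase COX-2, rose from 0.766, 1.59 and 1.18 to 27.4 and 20.2 CPM (4.30 ± 0.29), and Il4ra, a subunit of the interleukin 4 receptor, fell from 201, 182 and 186 to 122 and 135 CPM (-0.56 ± 0.07). Arg1 was at 56.5, 32.1 and 7.93 CPM in the Controls and 24.6 and 37.4 CPM in the combination, so the combination lay within the range of the Controls. Nos2 was at 0.490 to 1.65 CPM over the 5 libraries, with a log2 fold change of 0.05 ± 0.51.

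Of MHC class I and peptide loading genes, 9 of 22 tested rose and none fell (3 and 0 without combination 1, 5 and 0 without combination 2), and the highest log2 fold change was 0.92 (H2-Q7). H2-Q genes are near copies, so single members are uncertain. Of 12 MHC class II genes none was called by edgeR with all libraries (4 were higher and 2 lower at an unadjusted p under 0.05, and 1 was called lower without Control 2, MSA2 library 1 or MSA2 library 2), and their log2 fold changes lay between -0.27 and 0.25.

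Among NF-κB subunits and feedback genes, 13 of 21 tested rose and none fell (7 and 0 without combination 1 or combination 2). Feedback genes of the pathway were foremost. Nfkbia, which encodes IκBα, was at 58.6, 66.8 and 56.8 CPM in the Controls and 339 and 367 CPM in the combination (log2 fold change 2.54 ± 0.10, edgeR adjusted p = 7.23e-08). Tnfaip3, which encodes the inhibitor A20, rose from 30.5, 38.6 and 49.02 to 523 and 475 CPM (3.66 ± 0.16), and Nfkbiz, a nuclear IκB protein, from 3.26, 5.78 and 2.71 to 94.6 and 85.3 CPM (4.49 ± 0.20). Rel, the subunit c-Rel, rose from 88.7, 103 and 109.7 to 349 and 312 CPM (1.72 ± 0.11). In all 4 genes both combination libraries exceeded every Control.

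Sting1, the gene of the target of MSA2, was at 106, 98.2 and 111 CPM in the Controls and 99.1 and 99.994 CPM in the combination (log2 fold change -0.08 ± 0.07, edgeR adjusted p = 0.54), and the groups overlapped. Of STING pathway genes, 4 of 17 tested rose and 1 fell (4 and 0 without Control 1, Control 3, combination 1, combination 2 or MSA2 library 3, 4 and 2 without MSA2 library 1). Trex1, the exonuclease that degrades cytosolic DNA, rose from 22.1, 18.02 and 14.7 to 93.1 and 92.2 CPM (2.34 ± 0.20), and Aim2, another DNA sensor, from 41.5, 41.1 and 41.4 to 81.9 and 68.9 CPM (0.87 ± 0.07). Among interferon receptor, JAK-STAT and feedback genes, 6 of 24 tested rose and 4 fell (2 and 2 without combination 1, 4 and 2 without combination 2). Stat4 rose from 4.60, 4.71 and 7.27 to 14.4 and 16.9 CPM (1.51 ± 0.21) and Irf8, a transcription factor of dendritic cells, from 112, 108 and 117 to 218 and 228 CPM (0.99 ± 0.13). Ifngr2, a subunit of the interferon gamma receptor, fell from 83.1, 85.8 and 94.3 to 53.9 and 58.95 CPM (-0.64 ± 0.08). Socs1, a feedback inhibitor of JAK kinases, fell from 24.5, 25.4 and 20.4 to 8.28 and 8.59 CPM (-1.47 ± 0.34), a call that edgeR lost without combination 1 or combination 2 (adjusted p = 0.121 and 0.102).

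Of genes of the PI3K pathway, on which IPI-549 acts, 1 of 26 tested rose and 1 fell. Leaving out 1 library moved these counts (0 and 0 without Control 1, 0 and 2 without Control 2, 2 and 0 without Control 3). They also moved without an MSA2 library (1 and 2 without library 2, 0 and 1 without library 3) or a combination library. The calls made up 7.69% of the list beside 12.9% of all genes, not far apart for a list of 26. Pik3cg, which encodes the catalytic subunit p110γ, was at 231, 184 and 210.3 CPM in the Controls and 178 and 165 CPM in the combination. Both combination libraries were below every Control, and the log2 fold change of -0.28 ± 0.09 did not pass (edgeR adjusted p = 0.0603). It passed without Control 2 (adjusted p = 0.0132), with upper quartile factors (0.0273), without the filter (0.00613), with the stricter filter (0.0431) and in DESeq2 (0.0217). The 2 calls were Pik3cd, the gene of p110δ (-0.29 ± 0.07), and Pik3r1, a regulatory subunit (0.26 ± 0.08). Pik3cd was lost without Control 1, Control 3, combination 1 or combination 2 (adjusted p = 0.103, 0.0535, 0.144 and 0.17), and Pik3r1 under 7 alternatives, among them without Control 1, Control 2, combination 1, combination 2 or MSA2 library 3 (adjusted p = 0.163, 0.131, 0.257, 0.132 and 0.055 by edgeR).

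FOXO factors are held back by AKT downstream of PI3K. Of FOXO genes and targets, 4 of 24 tested rose and 6 fell (6 and 3 without Control 1, 4 and 3 without Control 2, 3 and 0 without combination 1, 3 and 1 without combination 2). Cited2, a transcriptional coregulator, rose from 42.6, 38.4 and 49.9 to 321 and 276 CPM (2.78 ± 0.15). Txnip, an inhibitor of thioredoxin, was at 572, 372 and 153 CPM in the Controls and 121 and 121 CPM in the combination, so that the Controls differed among themselves by more than Control 3 differed from the combination. Its log2 fold change was -1.59 ± 0.40 (edgeR adjusted p = 0.023), and the call was lost without Control 1, Control 2, combination 1 or combination 2 (adjusted p = 0.0553, 0.0512, 0.151 and 0.151).

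**Figure D4:**
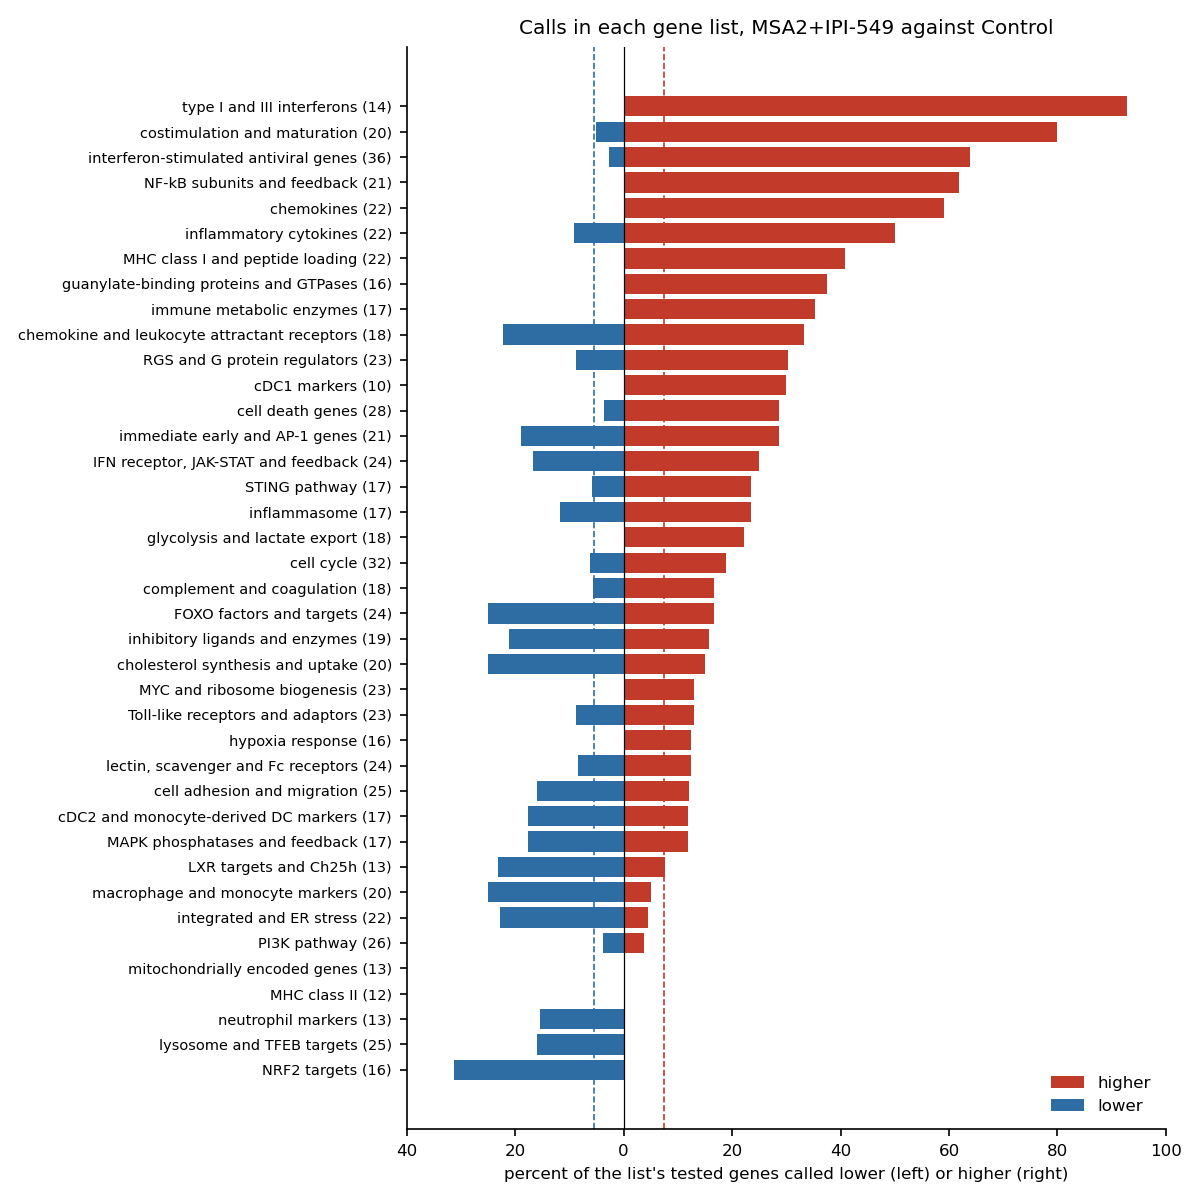
Bars give the percent of each list's tested genes (number in brackets) called higher (right) or lower (left), for lists with at least 10 genes tested, and dashed lines mark 7.51% and 5.38%, the shares over all genes. Interferon genes (13 of 14) and costimulation genes (16 of 20) extend furthest to the right. The interferon genes passed the expression filter through the treated libraries, which favours calls of higher.

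Among called genes with established names, a Control mean of at least 5 CPM and no overlap, those with the largest decreases include signalling regulators, transcription factors and receptors. Trib1, a pseudokinase that directs degradation of C/EBP factors, was at 12.1, 11.1 and 25.9 CPM in the Controls and 1.56 and 2.02 CPM in the combination (log2 fold change -3.19 ± 0.47, edgeR adjusted p = 0.000965). Id3, an inhibitor of E-protein transcription factors, fell from 18.4, 20.1 and 15.5 to 1.64 and 2.97 CPM (-2.98 ± 0.33), and Klf10, a zinc finger factor induced by TGF-β, from 35.2, 28.9 and 27.2 to 6.13 and 5.54 CPM (-2.38 ± 0.16). In all 3 genes the combination was below every Control. Dusp5, a phosphatase of nuclear ERK, fell from 27.04, 27.9 and 36.8 to 6.26 and 7.10 CPM (-2.20 ± 0.21). Btg2, an antiproliferative regulator of mRNA decay, fell from 80.3, 68.2 and 58.2 to 15.8 and 15.5 CPM (-2.14 ± 0.15). Adra2a, an adrenergic receptor, fell from 44.6, 31.6 and 28.6 to 8.13 and 10.9 CPM (-1.88 ± 0.19). Lpar5, a lysophosphatidic acid receptor, Cbx8, a Polycomb subunit, and Sall2, a zinc finger factor, had log2 fold changes of -2.19 ± 0.25, -2.28 ± 0.31 and -1.96 ± 0.26.

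Of immediate early and AP-1 genes, 6 of 21 tested rose and 4 fell (9 and 8 without MSA2 library 1, 8 and 7 without MSA2 library 2). Egr2 fell from 71.3, 61.4 and 87.9 to 21.4 and 20.8 CPM (-1.80 ± 0.17), whereas Jun, a component of AP-1, rose from 57.8, 60.7 and 65.4 to 118 and 118 CPM (0.94 ± 0.08) and Ier3 from 32.2, 47.3 and 31.3 to 169.6 and 172 CPM (2.21 ± 0.15). The groups did not overlap in any of these 3 genes. Among RGS and G protein regulators, 7 of 23 tested rose and 2 fell. Rgs1, which dampens chemokine receptor signals, rose from 67.7, 99.997 and 143 to 573 and 509 CPM (2.39 ± 0.23), and Ptger4, a prostaglandin E2 receptor, from 12.6, 11.5 and 14.8 to 66.9 and 67.7 CPM (2.38 ± 0.12). Adora2b, an adenosine receptor, fell from 10.9, 9.62 and 11.01 to 3.33 and 3.89 CPM (-1.54 ± 0.14).

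Of integrated and ER stress genes, 1 of 22 tested rose and 5 fell (1 and 3 without Control 1, combination 1 or combination 2, 2 and 5 without Control 3, 2 and 6 without MSA2 library 1, 4 and 6 without MSA2 library 2). Ppp1r15a, whose product GADD34 restores translation, was at 33.6, 53.4 and 34.4 CPM in the Controls and 1216 and 1148 CPM in the combination (log2 fold change 4.87 ± 0.17, edgeR adjusted p = 6.23e-08). Atf4, Ddit3 and Asns, other genes of the integrated stress response chosen after their values were seen, had log2 fold changes of -0.11, -0.31 and 0.20 and did not pass. Cebpb, a C/EBP factor, fell from 119, 134 and 126 to 34.999 and 41.97 CPM (-1.72 ± 0.12), and Ddit4, an inhibitor of mTORC1, from 5.67, 9.10 and 7.81 to 1.72 and 2.48 CPM (-1.85 ± 0.24). Of targets of NRF2, the factor that answers oxidative stress, 0 of 16 tested rose and 5 fell (0 and 3 without Control 1, Control 2 or combination 2, 0 and 2 without combination 1). Osgin1 fell from 9.73, 13.9 and 15.1 to 2.27 and 2.54 CPM (-2.42 ± 0.23) and Srxn1 from 222, 225 and 226 to 154 and 178 CPM (-0.44 ± 0.07).

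Among cell death genes, 8 of 28 tested rose and 1 fell (6 and 0 without combination 1 or combination 2). Pmaip1 (NOXA) and Bbc3 (PUMA), which promote apoptosis, rose from 49.5, 46.8 and 63.4 to 328 and 297 CPM (2.55 ± 0.16) and from 23.3, 22.2 and 19.5 to 94.6 and 105 CPM (2.20 ± 0.10). Cflar, whose product cFLIP inhibits caspase-8, rose from 66.5, 67.4 and 73.6 to 299 and 260.0 CPM (2.02 ± 0.09), with an edgeR adjusted p of 1.12e-07. Genes of opposite known action rose together. Of inflammasome genes, 4 of 17 tested rose and 2 fell (3 and 0 without combination 1, 3 and 1 without combination 2), led by Il1a, the gene of interleukin 1 alpha, from 11.8, 15.6 and 15.7 to 72.1 and 69.8 CPM (2.31 ± 0.14).

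Lineage genes changed in part. Among macrophage and monocyte markers, 1 of 20 tested rose and 5 fell (0 and 2 without Control 1, 2 and 4 without Control 2, 0 and 0 without combination 1 or combination 2), and among markers of conventional type 2 and monocyte-derived dendritic cells, 2 of 17 tested rose and 3 fell (2 and 1 without Control 1, 1 and 3 without Control 2, 1 and 2 without Control 3, 0 and 1 without combination 1, 1 and 1 without combination 2). Itgax was at 1856, 1651 and 1889 CPM in the Controls and 1500.4 and 1432 CPM in the combination and was called lower (log2 fold change -0.29 ± 0.08, edgeR adjusted p = 0.0345), a call lost without Control 1, Control 3, combination 1 or combination 2 (adjusted p = 0.116, 0.0951, 0.127 and 0.24). Irf4, a transcription factor of type 2 dendritic cells, fell from 232, 184 and 242 to 115 and 112 CPM (-0.95 ± 0.12). The 2 that rose were Flt3 (1.80 ± 0.39), near 0 in level, and Dpp4 (0.40 ± 0.10). The call of Dpp4 was lost without Control 2 or Control 3, among others. Of other genes taken to define BMDC, Csf2rb fell from 3177, 3036 and 3004 to 2342 and 2411 CPM (-0.37 ± 0.07). Csf2ra, Zbtb46, Cd74 and H2-Ab1 were not called. Of markers of conventional type 1 dendritic cells, 3 of 10 tested rose and none fell (3 and 1 without MSA2 library 2). These were Irf8, Ifi205 (2.69 ± 0.35) and Xcr1, the receptor of XCL1. Xcr1 was at 0.0851, 0.202 and 0.231 CPM in the Controls and 2.80 and 2.86 CPM in the combination (4.0 ± 0.28). It passed the expression filter through the treated libraries, so a call other than higher was hardly possible. Clec9a and Batf3, of the same list and chosen after their values were seen, had log2 fold changes of -0.47 and 0.45 and did not pass.

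Of immune metabolic enzymes, 6 of 17 tested rose and none fell (2 and 0 without combination 1, 6 and 1 without MSA2 library 1 or MSA2 library 2). Acod1, which makes the antimicrobial metabolite itaconate, rose from 97.5, 121 and 103 to 777 and 707 CPM (2.79 ± 0.13). Ch25h, which makes 25-hydroxycholesterol, rose from 1.59, 1.82 and 3.09 to 23.6 and 17.9 CPM (3.27 ± 0.28), while Abcg1, a cholesterol exporter, fell from 348, 288 and 297 to 222 and 213 CPM (-0.52 ± 0.09). Among Toll-like receptors and adaptors, 3 of 23 tested rose and 2 fell (2 and 1 without Control 1 or combination 2, 3 and 1 without Control 3, 1 and 1 without combination 1, 3 and 5 without MSA2 library 1 or MSA2 library 2). With all libraries this is 13% higher and 8.7% lower, not far from the 7.51% and 5.38% of all genes. Tlr2, a receptor of bacterial lipoproteins, rose from 158, 198 and 196 to 619 and 541 CPM (1.66 ± 0.10). Ticam2, the adaptor TRAM, fell from 41.8, 36.1 and 35.6 to 24.1 and 21.3 CPM (-0.73 ± 0.10).

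Exons of some of the genes named above overlap those of another gene, and reads of the pair may not be told apart because the use of strand in counting is not stated. The pairs with an established second gene were Cebpb with Tmem189, Cxcl10 with Art3, Il16 with Stard5, Il27 with Apobr, Jun with Junos, Ppp1r15a with Tulp2, Ptger4 with Ttc33, Ticam2 with Tmed7 and Trex1 with Atrip.

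The combination was set beside MSA2 alone in the same fit, since IPI-549 is what separates these treatments. No gene differed at an adjusted p under 0.05 by edgeR (0% of 14613), while 1595 had an unadjusted p under 0.05, 664 higher and 931 lower in the combination, where 5% of genes would be 731. DESeq2 called 29 higher and 142 lower, and limma-voom 1 and 2. Without MSA2 library 2, the deepest of the group, edgeR called 16 higher and 83 lower, without MSA2 library 1 it called 2 and 4, and without 1 Control or MSA2 library 3 it called none higher and 1 to 5 lower. The smallest adjusted p was 0.0687, shared by Il1a, Cxcl11 and Rgs2, all chosen for it. Il1a was at 163, 152 and 121 CPM in the MSA2 libraries and at 72.1 and 69.8 CPM in the combination (log2 difference -1.03, 95% interval -1.38 to -0.69). Cxcl11, annotated as a polymorphic pseudogene, was at 13.3, 7.54 and 10.5 CPM in the MSA2 libraries. The combination lay below these at 3.48 and 3.20 CPM (log2 difference -1.63, 95% interval -2.20 to -1.06). Rgs2, a regulator of G protein signalling, was at 233, 277 and 252 CPM with MSA2 and 154 and 154 CPM with the combination (-0.72, 95% interval -0.97 to -0.48). In all 3 genes the combination lay between Control and MSA2, without overlap.

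For the 24 genes with the largest folds against Control, the unadjusted 95% interval of the difference from MSA2 held 0 in 8 of the 12 that rose and in 10 of the 12 that fell. All 12 that rose were lower with the combination than with MSA2, at log2 differences of -0.91 to -0.05. The 12 that fell lay at -0.50 to 0.84. Neither set was tested as a whole. Ifnb1 was at 1102, 981 and 991 CPM with MSA2 (log2 difference -0.65, 95% interval -2.64 to 1.34). Il6 was at 120.0, 164 and 129.8 CPM (-0.91, 95% interval -1.51 to -0.30, edgeR adjusted p = 0.243), and Cd40 at 46.2, 47.3 and 42.4 CPM (-0.38, 95% interval -0.59 to -0.18, adjusted p = 0.174). Ccr7 differed by 0.01, 95% interval -0.42 to 0.44, and Trib1 by -0.30, 95% interval -1.58 to 0.98. All intervals against MSA2, here and above, were built with 5 degrees of freedom, fewer than the edgeR test uses, and are wider than that test implies. For Dusp5 (-1.02 to 0.03) and Id3 (-0.10 to 1.78) the interval held 0, although both passed the unadjusted threshold of the edgeR test. The counts of 8 and 10 intervals holding 0 are thus on the high side. An interval that holds 0 does not show that the treatments act alike.

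The response of BMDC was tested against that of B cells as the difference of the log2 fold changes over all 17 libraries. Of 17739 genes 539 differed (3.04%, edgeR adjusted p under 0.05), 379 with a more positive (2.14%) and 160 with a more negative change (0.902%) in BMDC. These were 192 and 54 without BMDC combination 1, 272 and 58 without BMDC combination 2, 276 and 105 without BMDC Control 1, 302 and 99 without B cell Control 2, and 316 and 106 without B cell combination 3. Among the 39 genes named for their size or as key genes, 13 differed, 8 more positive and 5 more negative in BMDC. Genes named for their size were picked by their change in BMDC, which enters this difference. Their number and signs are therefore partly set by the choice.

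Il12b rose from a mean of 3.25 to 143 CPM in BMDC and stood at 2.18 and 2.50 CPM in B cells, a difference of 5.21 ± 0.40 in log2 fold change (edgeR adjusted p = 2.37e-07). Cd40 had log2 fold changes of 1.89 ± 0.13 in BMDC and 0.16 ± 0.11 in B cells, whose Control mean of 68.7 CPM was above the 9.69 CPM of BMDC. Ccr7 differed by 1.34 ± 0.23, from a B cell Control mean of 1217 CPM. Isg15 rose in both, with a difference of 1.61 ± 0.35. For Ifit3 the difference of 0.64 ± 0.42 did not pass (edgeR adjusted p = 0.546), nor did that of Tnf at 2.31 ± 0.62 (adjusted p = 0.0543).

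**Figure D5:**
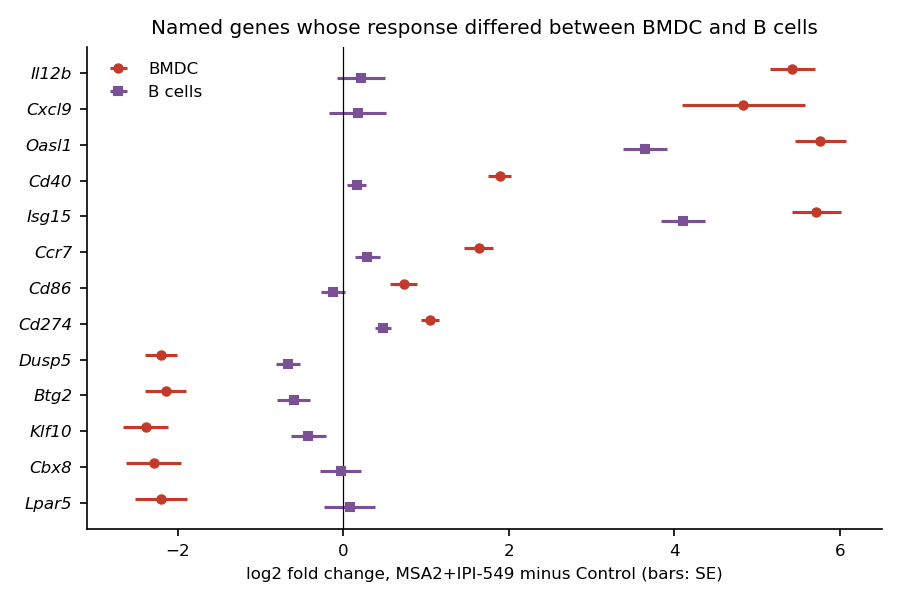
For the 13 named genes that differed between cell types, points give the log2 fold change, combination minus Control, in BMDC (circles) and B cells (squares), with bars of 1 SE. Isg15 and Oasl1 rose in both cell types and further in BMDC, while Lpar5 and Cbx8 were at 0.08 and -0.03 in B cells and -2.20 and -2.29 in BMDC.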

How the data were processed

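The authors deposited expected counts per gene from RNA-seq. Per the submitters' processing notes, cutadapt 4.8, STAR 2.7.8a, RSEM 1.3.3, FastQC 0.11.8 and MultiQC 1.20 were used, with GRCm38 (mm10), and the use of strand is not given in the sources used here. Expected counts were rounded to whole numbers. Rows for cre, egfp, mcherry and tdtomato (4 rows, at most 0.00635% of a library) were left out of library sizes and tests. The 8 BMDC libraries were fitted as 3 groups sharing 1 estimate of the spread, with edgeR 4.0.16 (R 4.3.3), TMM factors, filterByExpr and the quasi-likelihood F test, with calls below 0.05 after Benjamini-Hochberg adjustment. Fold changes are log2 with SE. The comparison with B cells used all 17 libraries, and the code was tested on simulated data.

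The genes, lists and tests were chosen with earlier results of these data known. Named genes were the 12 called genes with the largest fold in each direction (at least 5 CPM in the higher group, no overlap, no clone or predicted name such as Gm with digits), 19 key genes, and for each of 48 lists its 4 largest calls at most, plus 2 at most against its direction. Libraries of a group differed beyond sampling noise (chi-square of 9.95 to 83.0 per gene). The fits were repeated with DESeq2 1.42.0, limma-voom (limma 3.58.1) and glmTreat at 1.5-fold, with RLE or upper quartile factors, without a filter or requiring 1 CPM in 3 libraries, with the compared groups alone, with the replicate number as a block, and without each library in turn. List counts without single libraries were added after seeing the data.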

Additional observations from a re-analysis of the deposited data

Results flagged for a closer look

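For 13 of the 39 genes named for their size or as key genes, the response to the combination differed between BMDC and B cells by the test of the difference itself (edgeR, adjusted over 17739 genes). The difference in log2 fold change, BMDC minus B cells, was 5.21 for Il12b, 4.66 for Cxcl9, 2.12 for Oasl1, 1.73 for Cd40, 1.61 for Isg15, 1.34 for Ccr7, 0.85 for Cd86 and 0.56 for Cd274. It was -2.28 for Lpar5, -2.26 for Cbx8, -1.97 for Klf10, -1.55 for Btg2 and -1.53 for Dusp5. Genes named for their size were picked by their BMDC change, which is part of this difference, so the signs partly follow from the choice. Control means of Btg2, Dusp5 and Ccr7 were 1087, 257 and 1217 CPM in B cells and 71.5, 31.7 and 72.4 CPM in BMDC. Cxcl9 had means of 0.0587 CPM in Control and 1.625 CPM in combination BMDC, both below the 2.93 and 3.305 CPM of B cells. Its BMDC Control counts were 6, 0 and 0, so its fold change rests on few counts. Lpar5 was low in B cells, at 0.673 and 0.708 CPM. No group had 4 or more libraries, so single outlying libraries were not tested for.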

How the results depend on the processing

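Of 183 named genes called against Control, 110 kept their call under every alternative other than glmTreat, and 23 of the 24 genes with the largest folds did. Calls were lost most often without combination 1 (72 genes), combination 2 (52) and Control 1 (39). With glmTreat at 1.5-fold, which tests a larger effect, 341 genes were higher and 86 lower than in Control, and 124 and 29 differed between cell types. Leaving out 1 library gave 583 to 1255 higher and 260 to 922 lower. Against MSA2, no filter gave 106 higher and 455 lower, DESeq2 29 and 142, limma-voom 1 and 2, and the compared groups alone 0 and 13, and leaving out 1 library gave 0 to 16 higher and 0 to 83 lower. Between cell types, the lower count was 291 with no filter, 354 in DESeq2 and 329 with the compared groups alone, and leaving out 1 library gave 192 to 423 higher and 54 to 239 lower. The cause was not tested. Neither Arg1 nor Nos2 was called, and their signs reversed. Arg1 was 0.29 in limma-voom and -0.51 to 0.61 on leaving out 1 library, positive without Control 1 (0.61) or combination 1 (0.22). Nos2 was -0.13 with the replicate block and -0.59 to 0.74 on leaving out 1 library, negative without Control 2 (-0.18), Control 3 (-0.24) or combination 1 (-0.59).

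Libraries with the same number correlated at -0.11 to 0.127 after group means were removed, so the numbers were not taken as pairing. With the replicate block 940 genes were higher and 563 lower than in Control, 0 and 0 differed from MSA2, and 392 and 168 differed between cell types. Upper quartile factors moved the median of all genes to -0.04. With 2 combination libraries, small fold changes rest on single libraries, and genes with a handful of counts, such as Il10, could not be tested.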

Other observations

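Further lists held the following calls, to be read beside the 7.51% of all genes tested that rose and the 5.38% that fell. Of lysosomal genes 0 of 25 tested rose and 4 fell (0 and 1 without Control 1, combination 1 or combination 2, 0 and 8 without MSA2 library 2), among them Ctsk, the gene of cathepsin K, from 117, 105 and 98.6 to 69.997 and 70.7 CPM (-0.60 ± 0.10). Of cholesterol synthesis and uptake genes 3 of 20 tested rose and 5 fell (2 and 2 without Control 1, 2 and 3 without Control 2, 3 and 3 without Control 3, 1 and 1 without combination 1, 2 and 1 without combination 2), with Hmgcs1 lower (-0.66 ± 0.10) and Fdft1 higher (0.61 ± 0.09). Of glycolysis and lactate export genes 4 of 18 tested rose and none fell (1 and 0 without combination 1), with Pfkfb3 at 0.78 ± 0.11. Of complement and coagulation genes 3 of 18 tested rose and 1 fell (5 and 2 without Control 3). Plat, which encodes tissue plasminogen activator, rose from 0.0284, 0.157 and 0.0865 to 2.65 and 2.54 CPM (4.72 ± 0.35). Plat passed the expression filter through the treated libraries, so a call other than higher was hardly possible. C3ar1, the C3a receptor, fell from 149, 127 and 138 to 86.9 and 86.01 CPM (-0.67 ± 0.08). Of cell adhesion and migration genes 3 of 25 tested rose and 4 fell (2 and 1 without Control 1 or combination 1, 3 and 1 without combination 2), with Icam1 higher (0.81 ± 0.08) and Mmp19 lower (-0.71 ± 0.08). Of cell cycle genes 6 of 32 tested rose and 2 fell (2 and 1 without Control 1 or combination 2, 3 and 1 without Control 2, 1 and 0 without combination 1), led by Ccne2 at 1.11 ± 0.15. None of 13 mitochondrially encoded genes was called by edgeR with all libraries (at an unadjusted p under 0.05, 0 were higher and 1 lower), at a median log2 fold change of -0.31. Without MSA2 library 1, 4 of them were called lower, and without MSA2 library 2, 1 was. Exons of Ccne2 overlap those of Ints8, and exons of Fdft1 those of Ctsb.

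A row named egfp held 46.3 to 63.5 CPM in all 8 BMDC libraries, while rows named cre, mcherry and tdtomato held 0.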
